A study of Zea mays with 9 samples.

Results

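Among the 39372 maize transcripts measured in roots, 58 (0.147%) were higher after the protein hydrolysate alone, that is above both inorganic nitrogen and the matching mixture of free amino acids. They were chosen by their levels on all 9 arrays. Every array of the hydrolysate treatment (Bio) had to lie above every array of inorganic nitrogen (N) and of amino acids (Aa), the mean of Bio had to exceed the means of N and of Aa by at least 1 on the log2 scale, Aa had to exceed N by less than 1, and the transcript had to be well above background, as judged by the scanner software, on at least 2 of the 3 Bio arrays. A further transcript of the gene GRMZM2G429955 met these conditions and was set aside. Because the selection used every array, the differences between Bio and the other treatments are given below as a description and without a test. The word alone names the rule and not a tested response, since limma called 0 transcripts of the whole array in the comparisons with Bio.

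Roots of seedlings of the maize hybrid P0423 were collected after 3 days in a diluted nutrient solution. Seedlings were 4 days old when the treatments began and were kept under a light/dark regime. The N solution held NH4H2PO4, the Aa solution held free amino acids in the proportions found in the hydrolysate, and the Bio solution held 0.1 ml per litre of the hydrolysate, a product made from animal connective tissue and supplied by SICIT2000. Total nitrogen was 11.3 mg per litre in all 3 treatments, each treatment had 3 arrays of separate samples, and each sample pooled 24 seedlings.

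In the 1-colour arrays used, a single probe stood for each transcript. A level is the log2 of its intensity minus the log2 of the 75th percentile of the same array, so that 0 is the level of that percentile and negative levels are dimmer. The 75th percentile lay between 617.1 and 962.1 intensity units, and between 27019 and 32309 transcripts per array were well above background, with the smallest number on Bio replicate 1. The lowest level well above background lay between -6.70 and -5.09 on single arrays, no spot was saturated, and the number of arrays limits the precision. The replicates with the same number shared a slide, and N, Aa and Bio each kept the same place on every slide. Place on the slide and treatment cannot be told apart. In bulk roots, fewer cells of a type and less RNA per cell cannot be told apart either.

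Photosynthesis turns light into chemical energy in the thylakoid membranes of chloroplasts. Antenna proteins bind chlorophyll and pass the energy to photosystem II, which splits water, and to photosystem I, which reduces ferredoxin. Most of the subunits are encoded in the nucleus and some in the plastid genome. Plastids of roots usually lack this apparatus, although roots exposed to light can form some chlorophyll. Roots are better known for the uptake of nitrate and phosphate and for transcription factors that shape their growth. An annotation was found for 35 of the 58 transcripts and for 23 there was none. Of the 35, 18 belonged to the photosynthetic apparatus of the plastid and 17 to transport, transcription or other functions. The share of photosynthetic transcripts over the whole array was not counted with the same annotation. Whether 18 of 58 exceeds that share was therefore not tested.

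**Figure D1:**
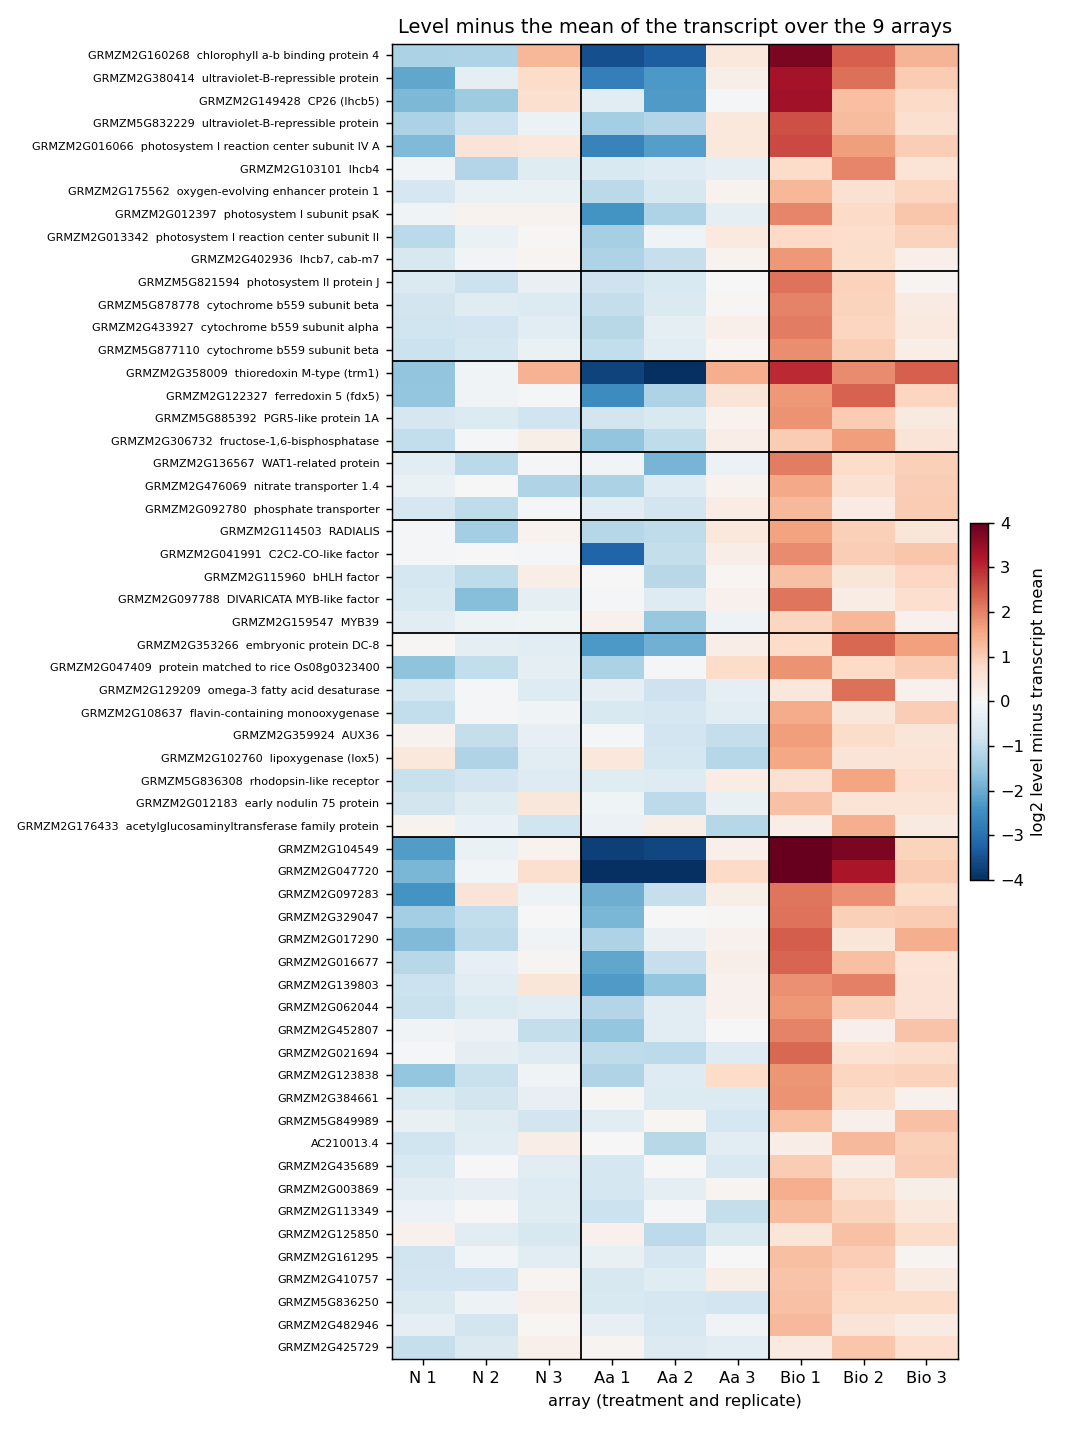
Level of each of the 58 transcripts (rows, grouped by role from top to bottom as nuclear photosystem and antenna, plastid gene family, plastid redox and carbon, transport, transcription factors, other annotated and not annotated) on each of the 9 arrays (columns), as log2 level minus the mean of that transcript, with colours ending at ±4. The Bio columns are the highest by selection; Bio replicate 1 is the darkest red column for 45 of the 58 rows, and the third replicates of N and Aa are paler than the others of their treatment in most of the upper rows.

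Over the whole array, every Bio array lay above every N and Aa array for 568 transcripts (1.44%). A mean difference of at least 1 to both treatments left 99 of these, the limit on Aa left 98, and the background criterion left 59, the excluded transcript among them. Bio arrays above all N arrays with a mean difference of at least 1 were found for 443 transcripts (1.13%), and Bio arrays above all Aa arrays for 527 (1.34%). The same rule with the treatments exchanged was met by 48 transcripts for Aa alone and 241 for N alone, there without the limit on the difference between the other treatments, and 15 were lower in Bio alone, with at least 2 arrays of both N and Aa well above background. All 9 arrays entered a single fit in limma, and a call required a 2-fold change together with a p, adjusted after Benjamini-Hochberg, no higher than 0.01. It called 0 transcripts in Bio vs. N (0%), 0 in Bio vs. Aa (0%) and 0 in Aa vs. N (0%), and so 0 of the 58. The unadjusted p of limma was below 0.05 for 2717, 1896 and 2828 transcripts in the same order. Spots marked as outliers were missing in this fit, so oxygen-evolving enhancer protein 1, with all 9 spots marked, was not tested in it. With all spots kept, limma tested 39372 transcripts and again called 0 in each comparison. A fit with the replicate number as a block and the methods' t-test with adjustment called 0 in each comparison too.

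Bio minus N over the 58 transcripts had a median of 1.52 and a range of 1.002 to 3.95, and Bio minus Aa had a median of 1.56 and a range of 1.03 to 5.57. The medians of all 39372 transcripts were 0.03 and 0.05. Aa lay below N for 35 of the 58, by at least 1 for 9 of them, and the median of Aa minus N was -0.08. For the 18 photosynthetic transcripts the medians of Bio minus N and Bio minus Aa were 1.69 and 1.70, and for the other 40 they were 1.42 and 1.48. At least 1 N or Aa spot was not well above background for 19 of the 58, and a difference from such dim spots is not resolved. With these spots raised to the lowest level well above background on their array, a setting chosen after the data were seen, the medians over the 58 were 1.43 and 1.51, and 57 met the rule. That level is no strict limit of detection, since some spots above it were not well above background, and these kept their own level.

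**Figure D2:**
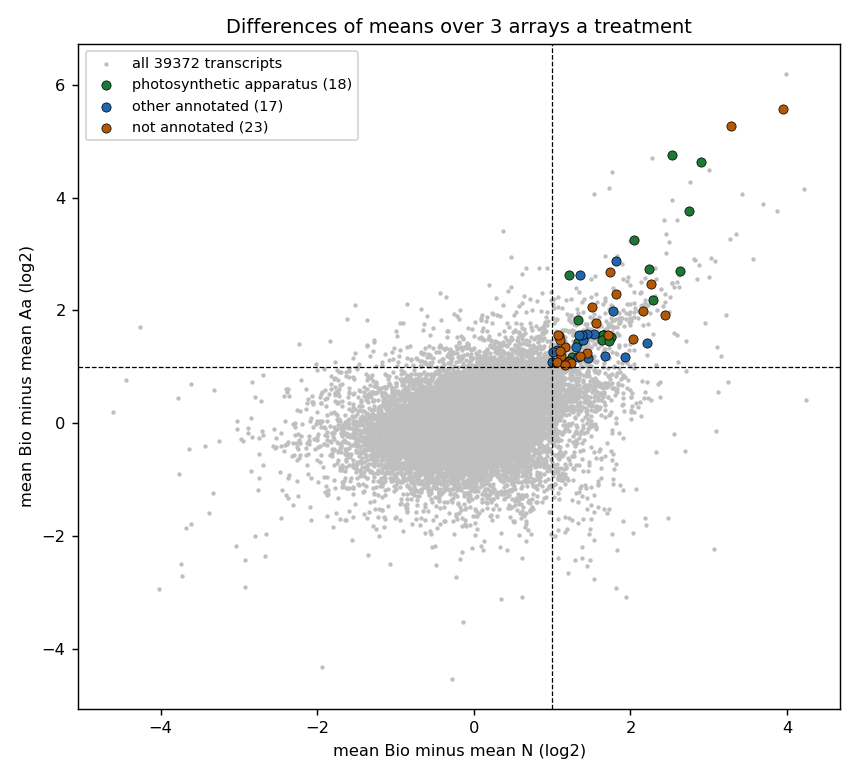
Difference of the means of Bio and N (x axis, log2) against the difference of the means of Bio and Aa (y axis, log2) for all 39372 transcripts (grey) and for the 58 (coloured by annotation), with the limits of 1 as dashed lines. The 58 begin at both limits by selection and reach 3.95 against N and 5.57 against Aa.

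The nuclear transcripts of the photosystems and their antenna made up 10 of the 58. Chlorophyll a-b binding protein 4 (GRMZM2G160268), an antenna protein, had levels of -5.96, -5.93 and -3.37 in N replicates 1 to 3, -8.21, -8.00 and -4.27 in Aa, and -0.93, -2.31 and -3.33 in Bio. Bio replicate 3 was almost level with N replicate 3, so the groups were separated by 0.04 only. Bio minus N was 2.90, which is 7.45-fold, and Bio minus Aa 4.63, and the SD of the 3 arrays was 1.49 in N, 2.22 in Aa and 1.20 in Bio. On the N arrays 2 of 3 spots and on the Aa arrays 1 of 3 were well above background. With the dim spots of N and Aa placed at the lowest level well above background on their array, the differences were 2.88 and 3.42, the latter 10.7-fold.

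CP26 (lhcb5, GRMZM2G149428), a minor antenna that joins the outer antenna to photosystem II, measured -7.97, -7.60 and -5.54 in N, -6.63, -8.44 and -6.27 in Aa and -2.84, -4.97 and -5.42 in Bio. Bio replicate 1 stood far above the rest, and Bio replicate 3 lay just above N replicate 3. The differences were 2.63 against N and 2.70 against Aa. On no Aa array and on 1 N array was the spot well above background. With the dim Aa spots raised to the lowest measurable level, Bio was 3.65-fold higher than Aa. The difference from N was 1.64 with the dim spots at that level. For lhcb4 (GRMZM2G103101), another minor antenna, the levels were -5.82, -6.89 and -6.22 in N, -6.32, -6.23 and -6.08 in Aa and -4.99, -3.78 and -5.18 in Bio, with differences of 1.66 and 1.56. Here Bio replicate 2 was the highest array and the separation of the groups, 0.64, was the widest among the photosynthetic transcripts. It was well above background on 2 Bio arrays, 1 N array and no Aa array. With the dim Aa spots raised to the lowest measurable level, Bio was 2.92-fold higher than Aa. This is no lower bound, since dim Aa spots above that level kept their own values and the Bio mean includes a dim spot.

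Photosystem I was represented by subunit IV A, subunit II and psaK. Subunits II and IV form the side of the complex at which ferredoxin docks. Subunit IV A (GRMZM2G016066) had levels of -7.33, -5.04 and -5.12 in N, -8.23, -7.75 and -5.12 in Aa and -2.91, -3.88 and -4.56 in Bio. The dimmest arrays were replicates 1 and 2 of Aa and replicate 1 of N, and Bio exceeded N by 2.05 and Aa by 3.25. Of the Aa arrays 1 was well above background, and with the dim spots at the lowest measurable level the differences were 1.84 and 2.11. Without N replicate 1 the difference from N was 1.30. Differences for psaK (GRMZM2G012397) were 1.22 against N and 2.62 against Aa, the latter 2.17 with dim spots at the lowest measurable level, and those for subunit II (GRMZM2G013342) were 1.25 and 1.17. In subunit II the 3 Bio arrays were close together, at -1.34, -1.45 and -1.21, and it was the only one of the 58 that was highest in Bio replicate 3.

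A pair of transcripts carried the name ultraviolet-B-repressible protein and were assigned to photosynthesis in the annotation of the study. GRMZM2G380414 lay at -6.67, -4.99 and -3.86 in N, -7.33, -6.88 and -4.37 in Aa and -1.28, -2.41 and -3.59 in Bio. GRMZM5G832229 gave -2.88, -2.48 and -1.85 in N, -2.95, -2.78 and -1.18 in Aa and 0.97, -0.35 and -0.95 in Bio. Both were highest in Bio replicate 1 and lowest, among the Bio arrays, in replicate 3, which lay near N replicate 3 in the former and near Aa replicate 3 in the latter. Bio minus N was 2.75 and 2.29, and Bio minus Aa was 3.77 and 2.19. The former transcript was well above background on 1 Aa array, and its difference from Aa was 3.22 with the dim spots at the lowest measurable level.

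Oxygen-evolving enhancer protein 1 (GRMZM2G175562), which shields the water-splitting centre of photosystem II, was well above background on every array. It measured 2.35, 2.75 and 2.76 in N, 1.94, 2.40 and 3.18 in Aa and 4.35, 3.62 and 3.88 in Bio. The spread was small in N and Bio, with SDs of 0.23 and 0.37, and the differences were 1.33 and 1.44. All 9 spots of this probe were marked as outliers by the scanner software. The remaining antenna transcript, lhcb7 (cab-m7, GRMZM2G402936), had smaller differences of 1.09 and 1.55, and without Bio replicate 1 that against N was 0.66.

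A separate group of 4 transcripts were annotated as proteins that the plastid genome encodes: the alpha and beta subunits of cytochrome b559 and protein J, small parts of the photosystem II core whose genes lie in a single plastid operon. Whether these probes measured the plastid transcript or a nuclear copy is not given in the sources used here, and near-identical copies may share signal. The alpha subunit (GRMZM2G433927) had levels of -2.28, -2.26 and -1.90 in N, -2.58, -1.87 and -1.29 in Aa and 0.55, -0.63 and -1.09 in Bio. Protein J (GRMZM5G821594) had -1.25, -1.53 and -0.98 in N, -1.52, -1.30 and -0.69 in Aa and 1.49, 0.24 and -0.56 in Bio. In both, Bio replicate 1 was the highest array, and Bio replicate 3 stood only slightly above Aa replicate 3. For protein J the differences without Bio replicate 1 were 1.09 and 1.01, against 1.65 and 1.56 with it.

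For the beta subunit the array had a pair of transcripts among the 58. GRMZM5G878778 measured -0.66, -0.41 and -0.47 in N, -0.90, -0.50 and 0.12 in Aa and 2.04, 0.95 and 0.40 in Bio. GRMZM5G877110 measured -4.23, -4.08 and -3.63 in N, -4.35, -3.79 and -3.30 in Aa and -1.51, -2.40 and -3.10 in Bio. The order of the arrays was nearly the same in these transcripts as in the alpha subunit and protein J. Bio minus N of the 4 lay between 1.64 and 1.75 and Bio minus Aa between 1.47 and 1.56, a narrower range than in the nuclear transcripts, which covered 1.09 to 2.90 and 1.17 to 4.63. Aa minus N lay between 0.09 and 0.23, whereas Aa was below N for 7 of the 10 nuclear transcripts. After subtraction of the treatment means, the median correlation between pairs of the 4 was 0.95 over the 9 arrays, which they share.

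Redox carriers and enzymes of the plastid added another 4. Ferredoxin 5 (fdx5, GRMZM2G122327), of a family that carries electrons from photosystem I, had levels of -5.31, -3.88 and -3.82 in N, -6.26, -4.99 and -3.23 in Aa and -2.02, -1.40 and -2.88 in Bio. Its highest array was Bio replicate 2, and Bio exceeded N by 2.24 and Aa by 2.73. The M-type thioredoxin (trm1, GRMZM2G358009), of a family that switches plastid enzymes through their disulphides, lay at -4.58, -3.14 and -1.60 in N, -6.70, -7.72 and -1.56 in Aa and -0.01, -1.10 and -0.60 in Bio. Replicates 1 and 2 of Aa were more than 5 log2 units below replicate 3, and the SD in Aa was 3.30 against 0.55 in Bio. The differences were 2.53 against N and 4.75 against Aa. Only Aa replicate 3 was well above background, and with the other Aa arrays at the lowest measurable level the difference from Aa was 4.13.

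PGR5-like protein 1A (GRMZM5G885392), known in Arabidopsis from the cyclic flow of electrons around photosystem I, gave -5.69, -5.58 and -5.82 in N, -5.76, -5.64 and -4.89 in Aa and -3.25, -4.01 and -4.66 in Bio. The N arrays agreed closely, and Aa replicate 3 came nearest to Bio. Fructose-1,6-bisphosphatase (GRMZM2G306732), an enzyme of sugar synthesis, measured -4.05, -3.11 and -2.81 in N, -4.62, -4.07 and -2.80 in Aa and -2.05, -1.39 and -2.55 in Bio. The differences were 1.72 and 1.45 for the former and 1.33 and 1.83 for the latter, and in both the separation from the nearest array was about that of the 58 as a whole, whose median was 0.25.

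Slides differed in how far Bio stood from the other treatments. For the photosynthetic transcripts the median of Bio minus N on the same slide was 2.73 on slide 1, 1.70 on slide 2 and 0.84 on slide 3. The median of Bio minus Aa was 3.07, 2.21 and 0.45 in the same order. All of these differences are above 0 by selection. Their mean over the 3 slides is at least 1 for each transcript, also by selection. How that mean was divided among the slides was not fixed by the rule. In the other 40 the medians were 1.92, 1.55 and 0.96 against N and 2.11, 1.45 and 0.79 against Aa, whereas for all transcripts they lay between -0.06 and 0.06. The 568 transcripts with every Bio array above every N and Aa array showed the same order of slides. Their medians were 0.62, 0.53 and 0.43 against N and 0.62, 0.46 and 0.36 against Aa. Bio replicate 1 was the highest Bio array for 45 of the 58, for 51.2% of these 568 and for 37.3% of all transcripts. Aa replicate 3 was the highest Aa array for 18 of the 18 photosynthetic transcripts and for 25 of the other 40. It was so for 43.1% of the 568 and for 37.5% of all transcripts. In N the replicate 3 array was the highest for 13 of the 18 and 23 of the 40. The array of N and Aa that came nearest to Bio was a replicate 3 for 42 of the 58, and Bio replicate 3 was the lowest Bio array for 31. What part the slide had in these differences was not tested.

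**Figure D3:**
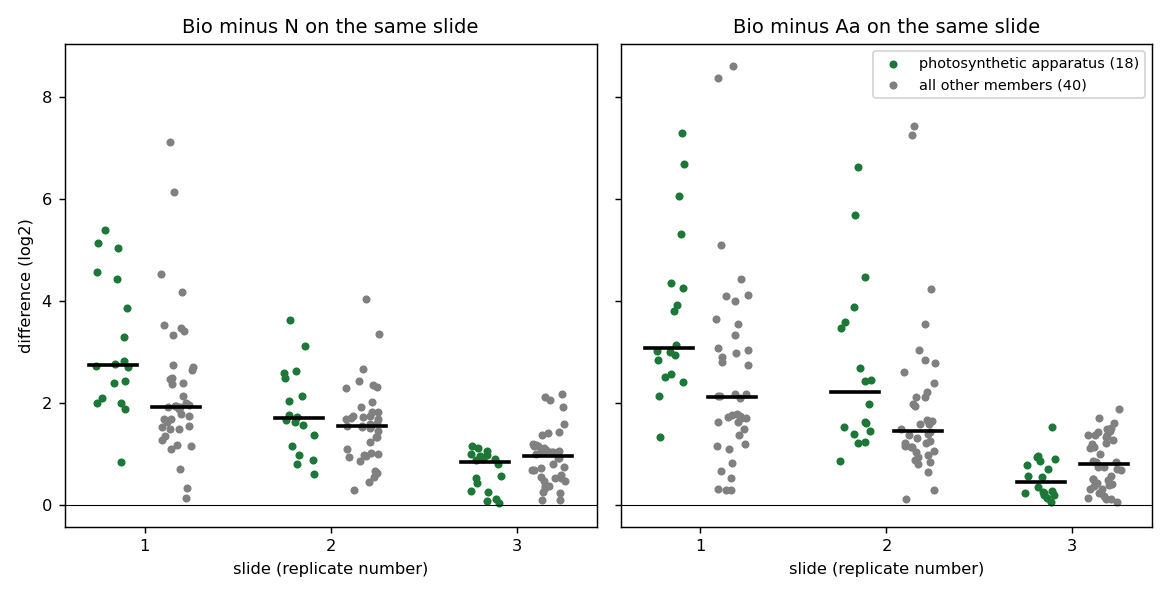
Difference of Bio and N (left) and of Bio and Aa (right) on the same slide (y axis, log2) for slides 1 to 3 (x axis), with a point for each of the 18 photosynthetic transcripts (green) and the other 40 (grey) and a bar at the median. The green medians were 2.73, 1.70 and 0.84 against N and 3.07, 2.21 and 0.45 against Aa.

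Transport proteins were represented by 3 transcripts. The nitrate transporter 1.4 (GRMZM2G476069), of the family that moves nitrate within the plant and whose namesake in Arabidopsis acts in leaf stalks, had levels of -3.37, -3.12 and -4.32 in N, -4.38, -3.64 and -2.98 in Aa and -1.59, -2.50 and -2.14 in Bio. Bio did not come close to N or Aa on any array, with a separation of 0.48, and the differences were 1.53 and 1.59. The WAT1-related protein (GRMZM2G136567), whose namesake in Arabidopsis moves auxin out of the vacuole, measured 0.17, -0.47 and 0.52 in N, 0.48, -1.26 and 0.36 in Aa and 2.65, 1.34 and 1.56 in Bio. Its separation of 0.82 was among the widest of the 58, whose maximum was 0.91, and the differences were 1.78 and 1.99, with 1 spot marked as an outlier in each treatment. A phosphate transporter (GRMZM2G092780) differed by 1.46 and 1.15, and without Bio replicate 1 the difference from Aa was 0.94.

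Transcription factors numbered 5, of which 3 were MYB or MYB-like proteins. RADIALIS (GRMZM2G114503), a MYB-like protein known from flower symmetry in snapdragon, lay at -0.55, -1.82 and -0.33 in N, -1.61, -1.49 and -0.06 in Aa and 1.14, 0.49 and 0.00 in Bio. Bio replicate 3 was only 0.06 above Aa replicate 3, and the differences were 1.44 and 1.59. A C2C2-CO-like factor (GRMZM2G041991), related to the CONSTANS family known in Arabidopsis from day length responses, measured -5.13, -5.09 and -5.12 in N, -8.29, -6.03 and -4.82 in Aa and -3.20, -4.10 and -3.97 in Bio. The N arrays were nearly identical, with an SD of 0.02, while Aa spread with an SD of 1.76 and was well above background on 1 array. Bio exceeded N by 1.36 and Aa by 2.62, and the latter was 1.67 without Aa replicate 1 and 1.98 with dim spots at the lowest measurable level. A DIVARICATA MYB-like factor (GRMZM2G097788), a bHLH factor (GRMZM2G115960) and MYB39 (GRMZM2G159547) had differences from N of 1.93, 1.33 and 1.06 and from Aa of 1.17, 1.18 and 1.30. Without Bio replicate 1 the DIVARICATA factor no longer met the rule, since its difference from Aa was 0.62.

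Among the other annotated transcripts, lipoxygenase 5 (lox5, GRMZM2G102760), of a family that oxygenates fatty acids, had levels of 4.20, 2.60 and 3.33 in N, 4.20, 3.10 and 2.65 in Aa and 5.35, 4.31 and 4.35 in Bio. Replicate 1 was the highest array in each treatment, and Bio replicate 2 was 0.11 above replicate 1 of N and Aa. The differences were 1.30 and 1.35, and 2 spots in each treatment were marked as outliers. Without Bio replicate 1 the difference from N was 0.96, below the limit of the rule. The omega-3 fatty acid desaturase (GRMZM2G129209), which introduces the last double bond of linolenic acid, gave -5.73, -5.08 and -5.52 in N, -5.37, -5.83 and -5.40 in Aa and -4.55, -2.80 and -4.83 in Bio. Bio replicate 2 was the highest array by far, and the differences of 1.39 and 1.47 became 0.76 and 0.84 without it.

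Embryonic protein DC-8 (GRMZM2G353266), a late embryogenesis protein first known from carrot, measured -5.45, -5.84 and -5.90 in N, -7.78, -7.40 and -5.21 in Aa and -4.75, -3.18 and -3.84 in Bio. Bio replicate 1 was the lowest of its Bio arrays and the only one of them not well above background, and the differences were 1.81 and 2.88. Aa was well above background on 1 array, and with dim spots at the lowest measurable level Bio was 4.01-fold higher than Aa. A flavin-containing monooxygenase (GRMZM2G108637) lay at -6.86, -5.97 and -6.02 in N, -6.50, -6.57 and -6.34 in Aa and -4.40, -5.42 and -4.91 in Bio. It was well above background on 3 Bio arrays, 1 N array and no Aa array. With the dim Aa spots raised to the lowest measurable level, Bio was 2.61-fold higher than Aa.

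AUX36 (GRMZM2G359924) had levels of -0.49, -1.58 and -0.94 in N, -0.67, -1.39 and -1.59 in Aa and 1.06, 0.10 and -0.13 in Bio, and the groups were separated by 0.35. Its differences were 1.34 and 1.56, and without Bio replicate 1 that from N was 0.99, just below the limit of the rule. A transcript matched to the rice protein Os08g0323400 (GRMZM2G047409) gave -2.97, -2.36 and -1.76 in N, -2.64, -1.42 and -0.64 in Aa and 0.43, -0.55 and -0.33 in Bio. In the latter, Aa lay above N by 0.80, near the limit of the rule, and Bio replicate 2 was 0.09 above Aa replicate 3. Bio exceeded N by 2.21 and Aa by 1.42, the latter becoming 0.88 without Aa replicate 1. The remaining annotated ones were a rhodopsin-like receptor (GRMZM5G836308), an early nodulin 75 protein (GRMZM2G012183) and an acetylglucosaminyltransferase (GRMZM2G176433), with differences from N of 1.67, 1.01 and 1.002.

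The largest differences from N among the 58 belonged to a pair of transcripts without annotation. GRMZM2G104549 had levels of -3.71, -1.73 and -1.32 in N, -5.21, -5.13 and -1.27 in Aa and 3.39, 2.30 and -0.59 in Bio. GRMZM2G047720 had -6.01, -4.27 and -3.52 in N, -8.24, -8.16 and -3.40 in Aa and 0.11, -0.92 and -3.16 in Bio. Both followed the order of arrays seen in chlorophyll a-b binding protein 4, with replicates 1 and 2 of Aa at the bottom and the third replicates of all treatments close together. Bio exceeded N by 3.95 and 3.28 and Aa by 5.57 and 5.28. The latter transcript was well above background on 1 Aa array, and its difference from Aa was 4.00 with the dim spots at the lowest measurable level, below that of trm1. In each, 1 Bio spot was marked as an outlier. A further such transcript, GRMZM2G097283, was well above background on all Bio arrays and on no array of N or Aa. With the dim spots at the lowest measurable level, Bio was 2.61-fold higher than N and 2.41-fold higher than Aa. The other 20 without annotation had differences from 1.03 upwards.

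The likeness of each transcript to the photosystem group was taken as the correlation, over the 9 arrays after subtraction of the treatment means, with the mean of the 10 nuclear photosystem and antenna transcripts. It was 0.94 for GRMZM2G104549 and 0.96 for GRMZM2G047720. Of the 23 transcripts without annotation 7 reached at least 0.8, with a median of 0.70. Among the 17 annotated to transport, transcription or other functions 1 did, the transcript matched to the rice protein, and the median was 0.49. Each of the 10 was compared with the mean of the other 9, and 6 reached 0.8, with a median of 0.89. The other 4 were psaK at 0.76, CP26 and photosystem I subunit II at 0.68 each, and lhcb4 at -0.07. The correlations describe arrays that all transcripts share and carry no p. The share of all transcripts on the array that reach 0.8 was not computed. Whether the counts above exceed that share is therefore not known.

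Just inside the limit of 1 on the smaller of the differences were the acetylglucosaminyltransferase, at 1.002, and the early nodulin 75 protein, at 1.014. Just outside it were GRMZM2G410963 at 0.980 and GRMZM2G175860 at 0.971, for which nothing else in the rule failed. For 11 of the 58 the lowest Bio array was less than 0.1 above the highest array of N and Aa.

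Photosynthesis transcripts that were not selected were examined through the names in the gene table, which gave 35 on the array in 7 lists, 5 of them among the 58. Of the other 30, Bio arrays were above all N arrays with a mean difference of at least 1 for 2, against 1.13% of all transcripts, and above all Aa arrays for 4, against 1.34%. Their median of Bio minus N was 0.63 and of Bio minus Aa 0.52, against 0.03 and 0.05 for all transcripts, and limma called 0 of them. With the normexp background correction, and relative to all transcripts, the medians were 0.10 and 0.14, and without Bio replicate 1 the median against N was 0.29. On at least 2 Bio arrays 19 of the 30 were well above background, and in these the medians were 0.57 and 0.45. The lists hold only 5 of the 18 photosynthetic transcripts of the 58, so they do not cover the apparatus in full.

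Several of these 30 had differences as large as those selected but overlapped between treatments through replicate 3. CP22 (psbs1, GRMZM2G077333), the photosystem II protein that disposes of excess light energy, measured -5.19, -3.87 and -3.21 in N, -8.09, -7.98 and -3.50 in Aa and -0.45, -1.41 and -3.62 in Bio. The photosystem I subunit psaN (GRMZM2G080107) measured -5.04, -4.51 and -2.83 in N, -7.12, -6.35 and -3.19 in Aa and 0.02, -1.97 and -2.86 in Bio. In both, Bio replicate 3 was no higher than N replicate 3. Mean differences were 2.27 and 4.70 for CP22 and 2.53 and 3.95 for psaN. Each was well above background on 1 Aa array, and with dim spots at the lowest measurable level the differences from Aa were 3.53 and 3.65. For CP24 (lhcb6, GRMZM2G092427), another minor antenna, Bio replicate 3 was also below N replicate 3. Its differences were 1.96 and 2.53, and it was well above background on every array. Rubisco activase (rca1, GRMZM2G162200), which keeps the carbon-fixing enzyme active, differed by 2.45 and 3.02 and overlapped with Aa replicate 3 only. It was well above background on 1 Aa array, and its difference from Aa was 2.62 with dim spots at the lowest measurable level. Ferredoxin 1 (FdI, GRMZM2G122337) missed the rule by Aa replicate 3 too.

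Other transcripts of the apparatus showed little difference. The antenna protein lhcb3 (GRMZM2G155216) differed by 0.30 and 0.26, the ferredoxin fdx3 (GRMZM2G053458) by 0.05 and 0.16, the ferredoxin reductase fnr1 (GRMZM2G058760) by -0.18 and -0.21, and PSBQ1 (GRMZM2G021617), of the water-splitting side of photosystem II, by -0.27 and -0.11. Of genes that are abundant in maize leaves, a Rubisco small subunit (GRMZM2G098520), the NADP-dependent malic enzyme of the C4 cycle (GRMZM2G085019), the plastid dehydrogenase gpa1 (GRMZM2G337113), fdx2 (GRMZM2G048313) and rca3 (GRMZM2G162282) did not reach the criterion for well above background on any of the 9 arrays. Others of the same lists did. The pyruvate phosphate dikinase C4ppdkZm1 (GRMZM2G306345) was well above background on all 9 arrays, with differences of -0.16 and 0.14. PEPC1 (GRMZM2G083841) was so on 8 of the 9, with 0.88 and 0.71, and the plastid dehydrogenase gpb1 (GRMZM5G845611) on 8 of the 9, with 0.19 and 2.45. The Bio levels of PEPC1 were -4.88, 0.91 and -3.60, and only Bio replicate 2 lay above all N and Aa arrays. Another Rubisco small subunit transcript (GRMZM2G113033) was measured on every array, with differences of 1.49 and 2.55 and an overlap between Bio replicate 3 and the arrays of N and Aa. Markers of the root, among them rth3, which acts in root hair growth, and rtcs, which is needed for shoot-borne roots, were well above background on at least 2 Bio arrays for 6 of 6. Their median differences were 1.35 from N and -1.60 from Aa. The shoot-borne root gene rtcs (GRMZM2G092542) differed by -2.32 and -0.59 and rth3 (GRMZM2G377215) by -0.34 and -0.26, whereas the iron uptake genes ys1, nas1, nas2 and naat1 lay above N by 1.17 to 2.48 and below Aa by 1.52 to 2.76. A list of 31 seed storage, oleosin and late embryogenesis transcripts, built from gene names and without DC-8, had 11 well above background on at least 2 Bio arrays and medians of 0.23 and 0.29.

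**Figure D4:**
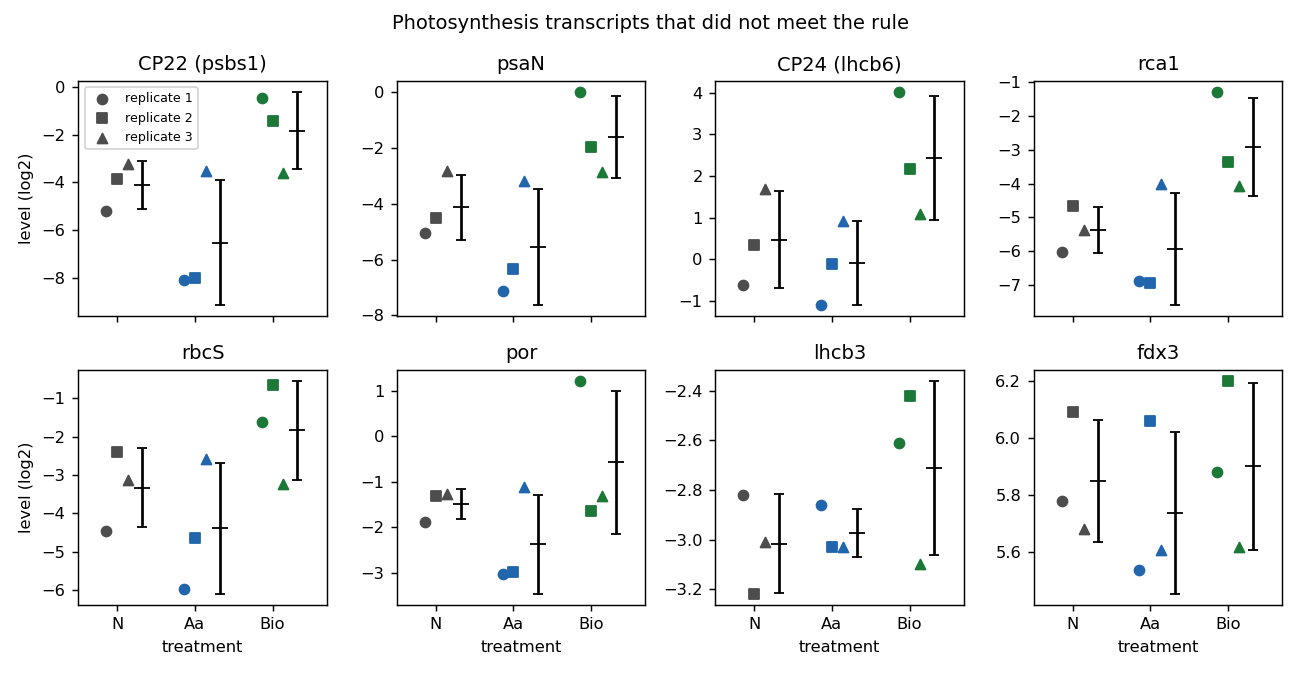
Levels (y axis, log2, a separate scale for each transcript) of 8 photosynthesis transcripts outside the 58 in N, Aa and Bio (x axis), with a symbol for each replicate and the mean ± SD (n = 3) beside it. CP22, psaN, CP24 and rca1 have high Bio replicates 1 and 2 and a Bio replicate 3 within the range of N or Aa, while lhcb3 and fdx3 differ by 0.30 or less between the means.

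Nitrate and phosphate transport, lipoxygenases and factor families were looked at in the same way. These lists rest on names in the gene table, and do not hold the nitrate transporter 1.4, the phosphate transporter, the MYB and MYB-like factors and the bHLH factor of the 58. Of 4 transcripts of nitrate uptake and 11 phosphate transporters named there, Bio arrays were above all N and Aa arrays for 0, against 1.44% of all transcripts. The median differences were 0.52 from N and -0.55 from Aa for nitrate uptake, where 3 of 4 were lower in Bio than in Aa, and -0.74 from N and 0.00 from Aa for phosphate transport. Of 10 lipoxygenases 2 did, lox5 and lox10 (GRMZM2G015419), the latter with a difference from Aa of 0.77 that kept it below the limit. In the lists of 26 NAC, 29 MYB and 46 bHLH factors there were 0 such transcripts, and median differences from N were 0.08, -0.11 and 0.07.

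Bio replicate 1 was the array with the fewest transcripts above background, and the rule was applied again without it. Leaving arrays out cannot undo the separation of the arrays by which the 58 were chosen, so only the limits on the means and on detection could fail. Of the 58, 42 still met the rule, among them 16 of the 18 photosynthetic and 26 of the other 40. Their differences were smaller, with medians over the 58 of 1.27 against N and 1.30 against Aa. The photosynthetic ones that dropped out were psaK and lhcb7. The other annotated ones were lox5, AUX36, the DIVARICATA factor, the phosphate transporter and the early nodulin 75 protein. When the arrays of a slide were left out, a check chosen after the data were seen, 27 of the 58 met the rule without slide 1, 45 without slide 2 and 51 without slide 3, and 7, 17 and 17 of these were photosynthetic. With the normexp background correction, which raises dim signals, 10 transcripts met the rule, of which 6 belonged to the 58, with 2 of the 18 photosynthetic ones among them. That correction moved the median of all transcripts to -0.34 for Bio minus N and 0.16 for Bio minus Aa, and relative to these medians all 58 were higher in Bio than in both treatments, the smallest difference being 0.06. The 58 were chosen for this direction on the same arrays, so its persistence is no independent support.

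**Figure D5:**
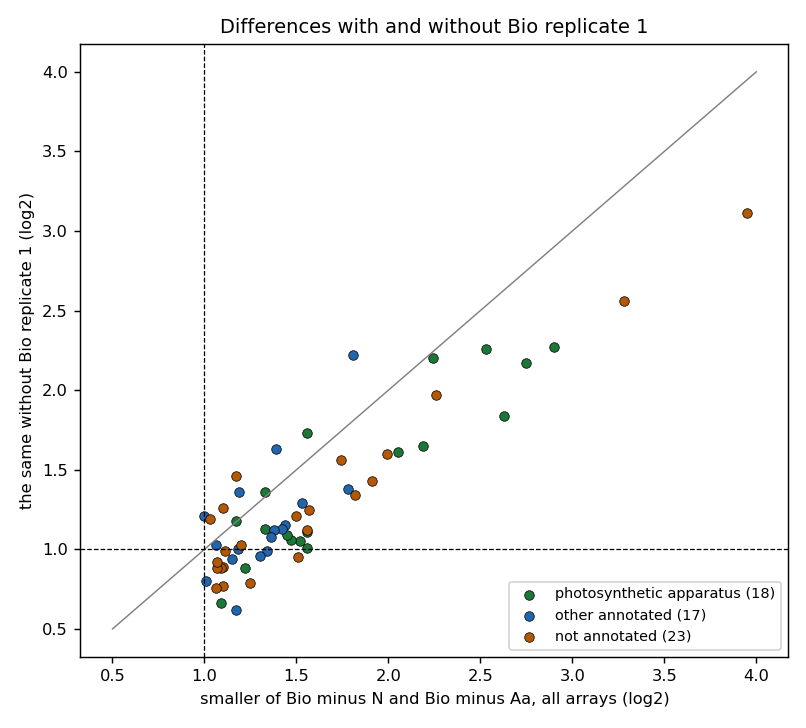
The smaller of Bio minus N and Bio minus Aa for each of the 58 transcripts with all arrays (x axis, log2) and without Bio replicate 1 (y axis, log2), with the limits of 1 dashed and a line of equal values. Of the 58, 42 still met the rule, and GRMZM2G104549 went from 3.95 to 3.11.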

How the data were processed

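RNA from maize roots was measured on 9 arrays, 3 for each of N, Aa and Bio. The deposited intensity values were, per the file headers, extracted with Agilent Feature Extraction 10.5.1.1, which subtracted the background and removed trends across the array, and the authors scaled it in a further table with a factor per array. The unscaled intensity was used here. All spots were kept for levels, and the 5.68% marked as outliers were missing in the tests. The transcripts and the gene lists were chosen with earlier results of these data known. Named with every array were the 25 annotated transcripts with the largest smaller difference and the 3 largest of any annotation. Annotation came from a RefSeq gene table (Zm-B73-REFERENCE-NAM-5.0), which matched 18726 transcripts of the array by identifier and holds names but no descriptions, and from descriptions in the lists of the study. The lists therefore rest on gene names, and no list of the Casparian strip could be made. A planned search for promoter motifs was not run.

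Tests used limma 3.58.1 in R 4.3.3 (lmFit and eBayes) and were tested on simulated data, as was the rule. The simulated arrays had independent noise, without the correlation between arrays of the same number. They cannot show how the tests behave where that correlation is present. Replicate numbers were taken to pair the arrays, because arrays with the same number shared a slide and their deviations from the treatment means correlated at 0.15 to 0.45 in every pair, over 26456 transcripts well above background on all arrays. Alternatives were quantile normalization, normexp with an offset of 50 on the median signals, the percentile over detected transcripts, the scaled table and other treatment of marked and dim spots. Further ones were a difference of 1.5, a replicate block, an adjusted p of 0.05 and each array or slide left out. Dim N and Aa spots were also placed at the lowest level well above background. A t-test per comparison took its p from the t distribution, with Benjamini-Hochberg adjustment or with none.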

Additional observations from a re-analysis of the deposited data

How the results depend on the processing

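The number of transcripts higher in Bio alone was 58 and stayed between 54 and 61 with quantile normalization, the percentile over detected transcripts, the scaled table, marked spots missing and detection on all 3 Bio arrays, and at 57 with dim N and Aa spots at the lowest measurable level, chosen after the data were seen. It was 10 with normexp, 97 without the detection criterion and 25 at a difference of 1.5. With each array left out in turn it was 56 to 180, being 92 without Aa replicate 3, 89 without Bio replicate 1, 159 without Bio replicate 2 and 180 without Bio replicate 3. Without slide 1, 2 or 3, also chosen then, it was 91, 156 and 233. Fewer arrays must then be separated, so the rule is easier to meet. The transcripts behind these numbers changed as well. Of the 58, 53 met the rule with quantile normalization, 53 with the percentile over detected transcripts and 54 with marked spots missing. With each array left out in turn, 42 to 56 of the 58 met it.

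In limma the counts stayed at 0 in Bio vs. N, Bio vs. Aa and Aa vs. N under every alternative run with adjustment, the replicate block included, for which 3813, 2954 and 3903 transcripts had an unadjusted p below 0.05. The t-test per comparison, with a p from the t distribution left unadjusted, called 102, 57 and 225 in that order.

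For the 30 photosynthesis transcripts outside the 58 the median of Bio minus N was 0.10 with normexp relative to all transcripts. It was 0.29 without Bio replicate 1 and otherwise 0.51 to 0.79, while Bio minus Aa was 0.14 with normexp and otherwise 0.45 to 0.88. The cause was not tested.

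All 9 arrays were well above background for 39 of the 58, and for the dimmer ones differences below the lowest measurable level are not resolved. At least 1 spot was marked as an outlier for 11.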
